A study of Mus musculus with 4 samples.

Results

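Alveolar type 1 cells are the thin, flat epithelial cells that cover most of the gas exchange surface of the lung. Ager, Pdpn, Hopx, Aqp5 and Cav1 are 5 genes commonly used to mark them, and their ribosome footprints were examined here in MLE-12 mouse lung epithelial cells. The 5 genes were picked by Ensembl ID, as 5 of the 53465 gene IDs counted; the rule that lists them uses no measured value, but it was written with earlier results of these data known. MLE-12 came from the lung of a mouse in which the surfactant protein C promoter drove the SV40 large T antigen, which immortalises the cells, and it serves as an alveolar type 2 model. Of the 4 libraries, 2 came from cells given 1-nitropyrene, a nitroarene found in diesel soot, at 5 µM for 12 h (replicates 2 and 3), and 2 from control cells kept without it (replicates 1 and 2). The series concerns the translation of Fbxw7 and the senescence of epithelial cells under this compound.

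In the lung, alveolar type 2 cells make surfactant and also act as progenitors: after injury they can flatten, lose surfactant genes and take on the genes of type 1 cells. The 5 markers belong to different parts of the type 1 cell. Ager and Pdpn encode surface proteins, Aqp5 a water channel, Hopx a nuclear regulator and Cav1 the coat of caveolae, the small membrane pits of which type 1 cells hold many. Cav1 is the least restricted of the set, as endothelial cells, fibroblasts, adipocytes and many cultured lines also make it.

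Of the 5 markers, only Cav1 was detected in this line. Cav1 footprints were counted in each of the 4 libraries and were fewer in 1-nitropyrene cells, at 0.546 of the control level. Ager, Pdpn, Aqp5 and Hopx were at 0 in each of the 4 libraries, with and without the compound. Footprints were thus found on 1 of 5 type 1 markers, the one that is also widely made elsewhere, while 74.3% of all gene IDs were at 0 in every library. That share is over gene IDs of any type. The 5 markers are protein-coding, and a share for protein-coding genes alone was not computed. The name of the set is used here for its genes and says nothing of the identity of these cells.

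The libraries held 1243186 and 1357034 counts in 1-nitropyrene cells and 1261372 and 1136145 in control cells. Levels are given in CPM, counts per 1e6 after scaling each library with TMM, a method that sets the bulk of genes equal between libraries. With this scaling 1 count was worth between 0.761 and 0.860 CPM. For a gene with no count the upper limit was set at 3 counts, close to the one-sided 95% Poisson bound on a count of 0, which comes to 2.58 and 2.38 CPM in the 1-nitropyrene libraries and 2.28 and 2.53 CPM in the control libraries. These limits, and the Poisson intervals below, cover counting error only. Whether the reads carried molecular identifiers is not given in the sources used here, and reads without them are not independent molecules.

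Ager encodes RAGE, an immunoglobulin-type receptor for advanced glycation end products and for HMGB1 and S100 proteins. It is protein-coding and lies on chromosome 17 at 34597460 to 34600937 of the GRCm38.p6 assembly, on the plus strand. Its ID, ENSMUSG00000015452, had 0 counts in 1-nitropyrene replicates 2 and 3 and 0 counts in control replicates 1 and 2. Over the 4 libraries together, 0 of 4997737 counts allows up to 0.600 per 1e6 of all counts.

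Pdpn encodes podoplanin, also called T1-alpha, a mucin-type membrane glycoprotein that binds CLEC-2 on platelets and, through ezrin and related proteins, the actin cortex. It lies on chromosome 4 at 143267409 to 143299564, on the minus strand. Pdpn (ENSMUSG00000028583) had 0 counts in both 1-nitropyrene libraries and 0 in both control libraries, with the same limits as Ager.

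Aqp5 encodes aquaporin 5, the water channel of the apical membrane of type 1 cells, also made in salivary and lacrimal glands. It lies on chromosome 15 at 99591028 to 99594829, on the plus strand, and 1 other gene in the RefSeq table, Gm34765, overlaps it. Aqp5 (ENSMUSG00000044217) had 0 counts in both 1-nitropyrene libraries and 0 in both control libraries.

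Hopx encodes a small homeodomain protein that does not itself bind DNA and that acts with serum response factor and histone deacetylases. In the mouse lung it marks type 1 cells from early in their differentiation. It lies on chromosome 5 at 77086986 to 77115123, on the minus strand, where 2 other entries of the table, Hopxos and LOC115490297, overlap it. Hopx (ENSMUSG00000059325) also had 0 counts in both 1-nitropyrene libraries and 0 in both control libraries. Whether the authors' counting used strand is not given in the sources used here, and reads shared with an overlapping gene may have been left uncounted, so for Aqp5 and Hopx the 0 refers to reads assigned to these IDs.

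A count of 0 was common in the table. Of the 53465 IDs, which were not split by gene type, 39727 were at 0 in every library, and 13738 had a count in at least 1. The table does list sparse genes, as 1827 IDs had between 1 and 3 counts over the 4 libraries. The 4 markers at 0 did not pass the filter on low counts and could not be tested. Their counts give no direction for the compound, and a level under the limits above can leave a count of 0.

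**Figure D1:**
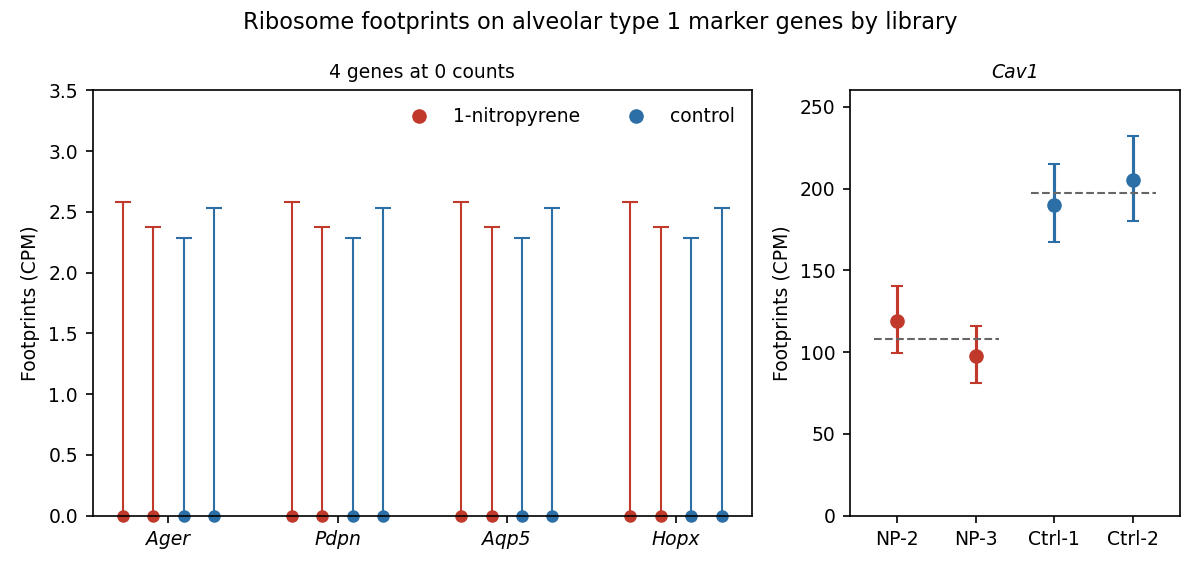
Footprints in CPM on the 5 marker genes in each library, 1-nitropyrene (NP, red) and control (Ctrl, blue). On the left, points are the measured 0 and the bars end at the level that a count of 0 allows, between 2.28 and 2.58 CPM; on the right, bars are 95% exact Poisson intervals and dashed lines are group means, and the 1-nitropyrene points for Cav1 lie below the control points.

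Cav1 encodes caveolin-1, the scaffold protein that oligomerises in the inner leaflet and, with the cavins, shapes caveolae. It lies on chromosome 6 at 17306335 to 17341328, on the plus strand, and no other gene of the table overlaps it. As ENSMUSG00000007655 it was counted 138 times in 1-nitropyrene replicate 2 and 123 times in 1-nitropyrene replicate 3, against 250 in control replicate 1 and 243 in control replicate 2. Both 1-nitropyrene libraries were thus low and both control libraries high, and the groups did not overlap. In CPM this order of the groups held for 28.7% of the genes tested.

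After scaling, Cav1 stood at 119 CPM in 1-nitropyrene replicate 2 (95% exact Poisson interval 99.8 to 140.3) and at 97.4 CPM in 1-nitropyrene replicate 3 (81.0 to 116). In control cells it stood at 190.1 CPM in replicate 1 (167 to 215) and at 205 CPM in replicate 2 (180.04 to 232). Within either group the intervals of the 2 libraries overlapped, while those of the 1-nitropyrene libraries ended below those of the control libraries. As a share of all counts, with no scaling, Cav1 took 111 and 90.6 per 1e6 counts in 1-nitropyrene cells and 198 and 214 per 1e6 counts in control cells.

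Cav1 averaged 108 ± 15.1 CPM in 1-nitropyrene cells and 198 ± 10.5 CPM in control cells (SD, n = 2 each). The log2 fold change was -0.87 ± 0.14 (SE), with a 95% interval of -1.14 to -0.60. As a ratio to control cells, this interval runs from 0.454 to 0.658. It rests on a spread taken from genes of like abundance. The DESeq2 Wald test, an alternative fit, gave a larger standard error of 0.22. The fall passed edgeR's quasi-likelihood test with a Benjamini-Hochberg adjusted p of 1.09e-08 over the 7719 genes tested. In that comparison 17.3% of genes were called in either direction at an adjusted p under 0.05 and 7.58% were called lower. Groups that do not overlap were common, since the 1-nitropyrene libraries both lay below the controls for 28.7% of the genes tested. For Cav1 alone, the smallest p that 2 against 2 libraries allow in an exact permutation test (two-sided) is 0.333.

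The fit takes the spread of Cav1 from genes of like abundance. The labels do not say whether the replicates were grown apart, so the spread behind the p-value and the interval may be technical. Footprints reflect the amount of mRNA and its ribosome occupancy together; RNA libraries of the same cells are not analysed here, and these parts, or fewer Cav1-expressing cells and less Cav1 RNA per cell, cannot be told apart.

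The size of the fall was set against the other genes. The median log2 fold change of all genes tested was -0.0076, and 585 genes were called lower. Of these, 288, Cav1 included, had a fall of at least the size of that in Cav1, and 19 had a smaller adjusted p. The mean count of Cav1 over the 4 libraries was 188.5, and 12.4% of the genes tested had a higher one.

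Among the 1510 genes with a mean count within 2-fold of that of Cav1 (94.25 to 377), 180 (11.9%) were called lower and 290 higher, and the median log2 fold change was 0.060. Of the 222 genes called lower by at least 2-fold over the whole table, 10 lay in this band. In it 17 genes, Cav1 included, had a log2 fold change as low as or lower than that of Cav1. Cav1 was thus one of the larger falls at its depth, although the band was chosen with its value known and no test was made of that place.

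**Figure D2:**
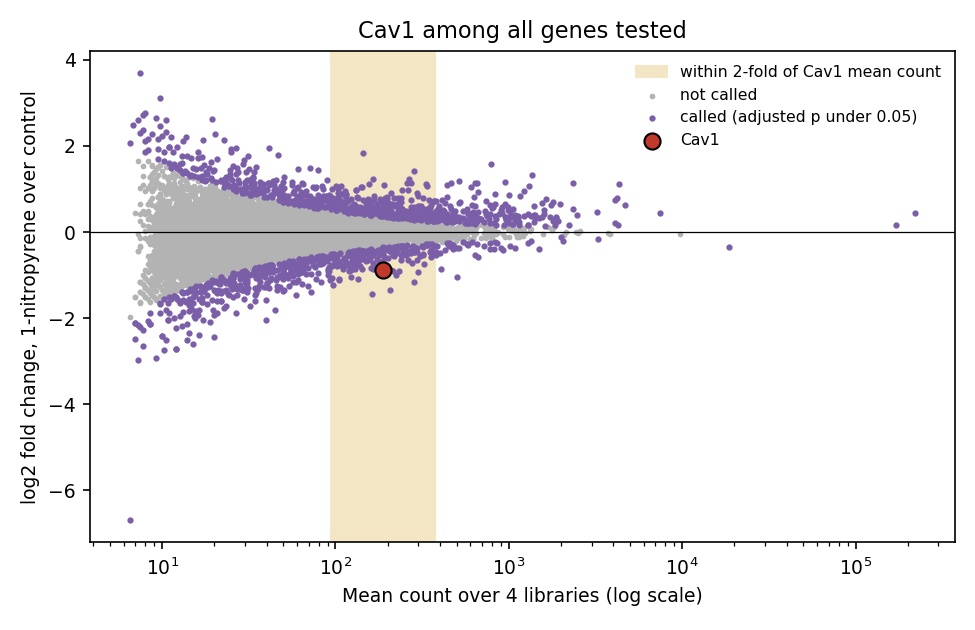
The log2 fold change of 1-nitropyrene over control against the mean count over the 4 libraries (log scale) for the 7719 genes tested; each point is a gene, purple where called. Cav1 (large point, -0.87 at a mean count of 188.5) is among the lower points in the shaded band, which holds the 1510 genes within 2-fold of its mean count.

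In rank by raw count, Cav1 stood at 1282 of the 11746 IDs with a count in 1-nitropyrene replicate 2 and at 1532 of 11827 in 1-nitropyrene replicate 3. It stood at 728 of 12161 in control replicate 1 and at 655 of 11922 in control replicate 2. These ranks and the mean counts are of reads per gene and not of levels per length, as no transcript lengths were used, so they show the depth behind a gene and not its level relative to other genes.

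The genes with the profile most like that of Cav1 were sought among the 3241 other genes that averaged 50 counts or more, by Euclidean distance of centred log2 CPM over the 4 libraries. The nearest 3 lay at distances of 0.066, 0.066 and 0.088 log2 units. They rested on fewer reads, with mean counts of 53.75, 76 and 69.5, and had log2 fold changes of -0.82, -0.81 and -0.83. As the gene table pairs no symbol with an Ensembl ID, they are not named, and with 4 libraries many genes could lie close by chance.

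Cav1 kept its direction and its call when the scaling, the filter or the test was changed and when any 1 library was left out. Over these 11 alternatives its log2 fold change lay between -1.04 and -0.73 and its adjusted p between 1.46e-11 and 0.0019. The lowest value came from total counts as the scaling. There the median over all genes tested was itself at -0.17, and relative to it Cav1 was at -0.86, as it was with TMM. A change of scaling alone moves all genes by nearly the same amount, so this match was fixed in advance and is no separate support.

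**Figure D3:**
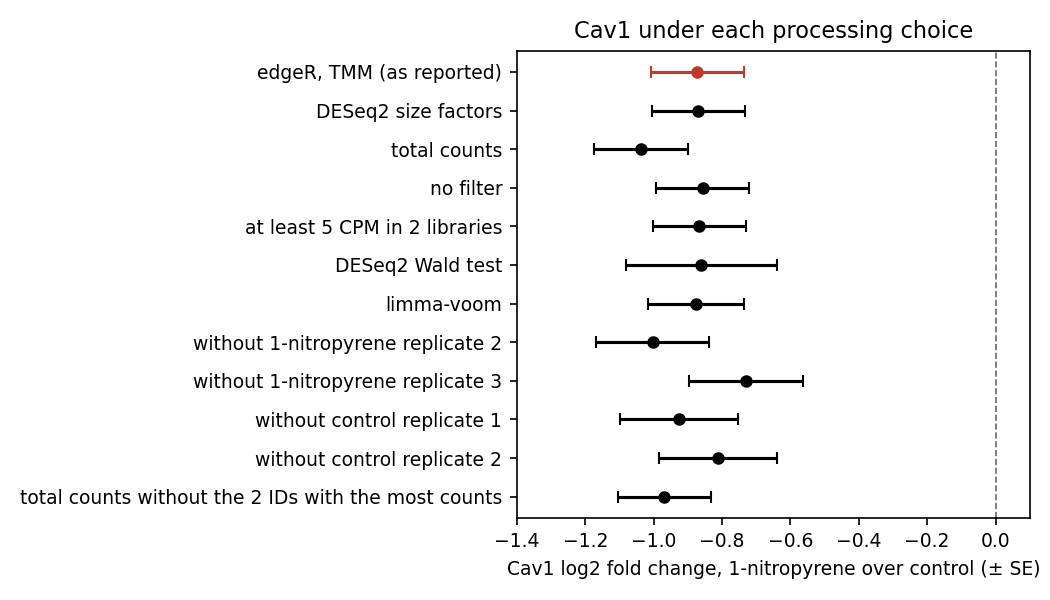
The log2 fold change of Cav1, 1-nitropyrene over control, with its standard error (bars), in the fit reported (red) and in 11 alternatives (black). All points lie between -1.04 and -0.73, left of the dashed line at 0.

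The start sites of the 5 genes were compared for sequence features, as a description only, since footprints do not read promoters. RefSeq windows of 250 bases before to 50 after a start (GRCm38.p6) were matched by symbol for all 5 genes, 7 windows in all, with 2 each for Cav1 and Hopx. The only Ager window, chr17:34597600-34597899, lies inside the gene span, which begins at 34597460, so it describes an internal start. So do 1 of the 2 Cav1 windows (chr6:17307390-17307689) and 1 of the 2 Hopx windows (chr5:77095218-77095517). Of the 2 windows of Cav1, the marker with footprints, the one at the start of the gene span is shown. The window of Aqp5, the marker at 0 with the most CpG, is shown too. Capitals mark the motif matches described below.
Cav1, chr6:17306085-17306384, plus strand: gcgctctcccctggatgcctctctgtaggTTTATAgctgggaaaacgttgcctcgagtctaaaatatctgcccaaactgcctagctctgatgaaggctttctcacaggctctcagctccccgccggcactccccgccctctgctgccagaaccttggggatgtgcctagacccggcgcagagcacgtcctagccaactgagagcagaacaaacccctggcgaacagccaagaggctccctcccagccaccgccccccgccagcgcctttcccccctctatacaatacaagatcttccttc
Aqp5, chr15:99590778-99591077, plus strand: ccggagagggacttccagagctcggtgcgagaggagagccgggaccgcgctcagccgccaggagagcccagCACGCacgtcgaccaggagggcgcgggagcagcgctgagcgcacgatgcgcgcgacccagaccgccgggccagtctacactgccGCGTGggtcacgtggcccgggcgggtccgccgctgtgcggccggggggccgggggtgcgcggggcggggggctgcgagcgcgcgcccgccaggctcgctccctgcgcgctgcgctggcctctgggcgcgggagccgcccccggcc

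The Cav1 windows held 13 and 16 CpG dinucleotides, against 4 in Ager, 7 in Pdpn, 8 and 21 in Hopx and 46 in Aqp5. The 16 in Cav1, the 21 in Hopx and the 4 in Ager are from internal starts. The median over all 32851 windows was 7. CpG content thus did not set Cav1 apart from the 4 genes at 0, whose windows lay on both sides of it. In Aqp5 98.4% of all windows had fewer CpG. Both strands were searched for TATAAA, for GGAATG, a core recognised by TEAD factors, the partners of YAP and TAZ in type 1 cells, and for GCGTG, the core recognised by the aryl hydrocarbon receptor, to which many polycyclic aromatic compounds bind. TATAAA was found once, in the Cav1 window shown, on the minus strand at -221 from the start, and is held by 13.6% of all windows. GGAATG was in none of the 7 windows and is held by 14.7% of all windows. GCGTG was found in Aqp5 and in the internal Hopx window and not in Cav1, and is held by 32.4% of all windows.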

How the data were processed

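Ribosome-protected fragments of MLE-12 cells were sequenced in 4 libraries. The authors deposited whole-number counts per Ensembl gene ID, without normalization, with 0 further sample columns. The submitters' processing notes name mm10 as the build and, as tools, HISAT2, Bowtie, cutadapt, DESeq2 and featureCounts; versions, annotation, strand and length settings: not given in the sources used here.

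The symbols of the 5 IDs came with the definition of the marker set. The RefSeq gene table (GRCm38.p6, 49997 genes) holds 0 Ensembl IDs, so this pairing could not be checked, loci and promoter windows were found by symbol, and 8 symbol lists related to the markers and 8 lists of other cell types were not run. The members and lists were chosen with earlier results of these data known.

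All IDs were filtered with filterByExpr (minimum count 10, minimum total 15), scaled with TMM and fitted with edgeR's quasi-likelihood test without covariates (R 4.3.3, edgeR 4.0.16), with Benjamini-Hochberg adjustment over the genes tested. Standard errors were derived from the fold change and F. The code was tested on simulated data. Alternatives were leaving out each library, limma-voom (3.58.1), the DESeq2 Wald test (1.42.0), total counts or DESeq2's size factors as scaling, and as filters none or 5 CPM in 2 libraries; total counts without the 2 IDs with the most counts was added after seeing the data. Of the rule for named genes, the 5 members and the 3 nearest profiles of a member with a mean count of at least 10 were applied.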

Additional observations from a re-analysis of the deposited data

How the results depend on the processing

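The fall of Cav1 kept its direction and call in all 11 alternatives run. Without 1 library its log2 fold change ran from -1.002 to -0.73, both extremes arising when a 1-nitropyrene library was left out, and the adjusted p was at most 0.00076. Ager, Pdpn, Aqp5 and Hopx, at 0 in every library, necessarily stayed at 0 whichever library was left out. Without any count they could not be tested in any alternative. The number of other genes called varied more. The 1332 genes called (747 higher, 585 lower) became 315 (238 higher, 77 lower) with the DESeq2 Wald test, which gave an adjusted p to 2818 genes after its own filter, against 7719 in edgeR. Total counts gave 406 higher and 1110 lower; the cause was not tested. The share of lower calls was 2.73% of those 2818 genes with DESeq2 and 14.4% of the 7719 with total counts. With a library left out (the single one remaining taken to vary as the other group does), between 572 and 834 genes were called, of them between 382 and 480 higher and between 190 and 354 lower: without 1-nitropyrene replicate 2 the total was 572, without 1-nitropyrene replicate 3 it was 834, without control replicate 1 it was 765 and without control replicate 2 it was 742. No paired analysis was possible because number 2 is the only replicate number that both groups have. No label gives a batch, so whether the groups were handled apart was not tested. For the 4 markers at 0, depth sets the bounds given, and a level below them can leave a count of 0.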
